A study of Homo sapiens with 8 samples.

Results

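Open chromatin after treatment with Corin was set directly against open chromatin after treatment with ATRA in U-937, a human myeloid leukaemia cell line with monocytic features. The assay was ATAC-seq, which reads accessible DNA from the cuts a transposase makes in it. Cells had received ATRA at 0.1 µM, Corin at 0.1 µM, both compounds at 0.1 µM each, or the DMSO vehicle, and were collected after 24 h. With 2 samples in each of these 4 groups the series held 8, and the ATRA and Corin groups compared here held 4 of them. All came from 1 cell line, and the labels do not say whether the 2 samples of a group were separate cultures. The deposited data used here were 1 peak list per group that pooled its replicates. Replicate error therefore cannot be given for any value below, and no difference was tested against it.

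Peaks of a list that overlapped were merged into regions, and the ATRA and Corin regions that overlapped by at least 1 bp were joined. The result was 139188 union regions of the 161291 that all 4 lists formed together. Of these, 38791 were called with ATRA and not with Corin, here named ATRA-only regions. They were 27.9% of the union regions and 34.1% of the ATRA list's 113914 regions (33.8 to 34.3 as a 95% Wilson interval, covering counting error over regions alone). Another 26880 were Corin-only regions, 19.3% of the union regions and 26.4% of the 101851 regions in the Corin list (26.1 to 26.7). The remaining 73517 were shared. Positions are on the human genome build hg38.

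ATRA, all-trans retinoic acid, is the ligand of the retinoic acid receptors, which bind DNA with retinoid X receptors at direct repeats of a short half-site and exchange co-repressors for co-activators when the ligand binds. It drives differentiation of some myeloid leukaemia cells. Corin joins a histone deacetylase inhibitor and an inhibitor of the demethylase LSD1 in 1 molecule and targets the CoREST co-repressor complex, which GFI1 and other repressors bring to DNA. PU.1, an ETS-family factor, opens enhancers of the monocyte and granulocyte lineages. AP-1 dimers of FOS, JUN and related proteins bind a short near-palindrome at enhancers that respond to signals and stress.

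Motif shares at the summits differed between the compounds, and the regions below are examples of matches, not a measure of how often they occurred. Each is the 200 bp centred on the strongest summit, plus strand of hg38, from the strongest Corin-only regions, with every match to the AP-1 consensus TGANTCA in capitals. The DNM3 sequence is chr1:171817768-171817967, BAIAP2L1 chr7:98418936-98419135 and COBL chr7:51123736-51123935. They were picked from the named Corin-only regions because each held 2 matches, while those near STX1A and DUSP5 held 1 each, so they give no rate.
DNM3: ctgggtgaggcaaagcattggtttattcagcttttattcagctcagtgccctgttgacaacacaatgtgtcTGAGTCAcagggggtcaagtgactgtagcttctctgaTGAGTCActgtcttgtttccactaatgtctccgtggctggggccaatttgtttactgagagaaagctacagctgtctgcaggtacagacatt
BAIAP2L1: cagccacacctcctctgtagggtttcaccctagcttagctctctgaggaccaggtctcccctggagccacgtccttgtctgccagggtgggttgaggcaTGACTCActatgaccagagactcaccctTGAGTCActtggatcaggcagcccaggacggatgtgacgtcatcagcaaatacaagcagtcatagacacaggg
COBL: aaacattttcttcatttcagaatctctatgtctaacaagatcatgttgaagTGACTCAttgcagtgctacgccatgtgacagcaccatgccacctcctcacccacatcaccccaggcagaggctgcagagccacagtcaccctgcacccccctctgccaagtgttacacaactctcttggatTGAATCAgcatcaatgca

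Of the shared regions with the largest shift towards Corin, those of BCL2 (chr18:63161830-63162029) and NRXN3 (chr14:78143585-78143784) are shown for their AP-1 matches, 1 in BCL2 and 2 in NRXN3, in capitals as before. In NRXN3 the capitals also mark a RUNX match (TGTGGT).
BCL2: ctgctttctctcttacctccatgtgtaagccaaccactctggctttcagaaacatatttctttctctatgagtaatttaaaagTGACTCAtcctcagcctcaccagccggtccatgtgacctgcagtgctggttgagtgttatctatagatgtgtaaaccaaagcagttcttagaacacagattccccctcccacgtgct
NRXN3: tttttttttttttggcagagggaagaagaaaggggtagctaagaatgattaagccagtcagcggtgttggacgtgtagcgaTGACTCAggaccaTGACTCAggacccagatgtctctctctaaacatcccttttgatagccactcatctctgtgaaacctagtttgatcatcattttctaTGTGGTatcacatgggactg

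Shared regions with a large shift towards ATRA are shown for their ETS, RUNX and IRF matches. In BANK1 (chr4:101981938-101982137) and G3BP2 (chr4:75710276-75710475) the capitals mark the PU.1 consensus GAGGAAGT, the ETS core GGAAGT that lies within it, and the RUNX consensus TGTGGT, on either strand. In ADAR (chr1:154657631-154657830) they mark the IRF consensus GAAANNGAA.
BANK1: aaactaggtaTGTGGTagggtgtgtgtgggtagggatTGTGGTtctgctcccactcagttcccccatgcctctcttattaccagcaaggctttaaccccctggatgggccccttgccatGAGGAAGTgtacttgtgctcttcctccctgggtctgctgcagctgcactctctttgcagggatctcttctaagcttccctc
G3BP2: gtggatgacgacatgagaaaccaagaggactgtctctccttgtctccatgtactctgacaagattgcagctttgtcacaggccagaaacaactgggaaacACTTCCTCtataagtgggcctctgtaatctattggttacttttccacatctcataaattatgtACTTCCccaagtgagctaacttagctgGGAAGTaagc
ADAR: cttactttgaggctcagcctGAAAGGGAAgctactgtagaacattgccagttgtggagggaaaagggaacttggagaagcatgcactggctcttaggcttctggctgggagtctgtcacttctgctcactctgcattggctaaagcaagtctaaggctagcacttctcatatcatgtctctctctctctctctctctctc

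Of the 6 strongest ATRA-only regions, 4 held none of the motifs put in capitals here, and the other 2 are shown as the nearest cases. PIK3R3 (chr1:46070528-46070727) has a RUNX match and NCOA3 (chr20:47531545-47531744) an ETS core on the minus strand. A match is a string of letters and not a bound site, and a window without a match says nothing of the factor.
PIK3R3: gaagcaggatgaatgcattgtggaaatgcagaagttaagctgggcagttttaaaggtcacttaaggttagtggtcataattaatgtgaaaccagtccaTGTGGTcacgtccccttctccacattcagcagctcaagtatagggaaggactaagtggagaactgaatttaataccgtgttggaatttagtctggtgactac
NCOA3: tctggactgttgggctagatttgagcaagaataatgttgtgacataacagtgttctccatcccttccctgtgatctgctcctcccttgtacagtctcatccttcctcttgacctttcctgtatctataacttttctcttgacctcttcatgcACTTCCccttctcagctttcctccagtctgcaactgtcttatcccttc

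The lists did not have equal background. The most frequent local background of a list, solved from the deposited fold and p as read pileup, was 9.12 with ATRA and 13.1 with Corin, against 12.8 with DMSO and 13.9 with both compounds. Peaks had a median fold of 4.8 with ATRA and 3.32 with Corin. At shared regions the Corin fold was therefore compared with the ATRA fold after centring. The median log2 ratio of Corin over ATRA was −0.41 before centring, and within 20 classes of region strength it ran from −0.77 to −0.15. The shift of a region is its log2 ratio less the median of its class. Read depth is not known for any sample, and the part of depth and background in these counts was not tested.

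As a check of the cell type, 25 myeloid genes were looked up. Of their promoters 19 had a region in both lists, that of FCGR1A, an Fc receptor, in the Corin list alone, and the other 5, among them those of CD14 and MPO, in neither. The label of a myeloid line was thus met by most of the list and not by all of it. ITGAM, the integrin chain CD11b, had folds of 20.8 with DMSO, 23.9 with ATRA, 19.9 with Corin and 21.9 with both. CD33, a myeloid surface lectin, had 17.6, 20.4, 15.5 and 20 in the same order. SPI1, the gene of PU.1, had 8.22, 10.1, 8.49 and 10.8. Of 15 lymphoid and erythroid markers, 7 had a promoter region in both lists, among them CD79A, at 7.55, 16.6, 6.75 and 11.5, while CD3D, CD3E, CD3G, MS4A1, KLF1 and HBB were among those with none in either. An open promoter in a list is not expression, and a fold compares a region with its surroundings and not genes with each other.

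Regions called with a single compound were mostly weak. In the weakest 10% of the ATRA list by −log10 p, 73.5% of the regions had no Corin counterpart, and in the strongest 10% only 10 regions of 11392 had none. In the Corin list 86.6% of the weakest 10% had no ATRA counterpart, and 8 regions of 10186 in the strongest 10%. Among strong regions, defined as the strongest 20% of a list, 146 of 22783 ATRA regions (0.641%) and 97 of 20371 Corin regions (0.476%) lacked a counterpart. The strong limit was a −log10 p of 311.1 with ATRA and 254.4 with Corin. The numbers depended on what counted as strong, since ranking by fold gave 1015 and 228. Their order depended on list length, since lists cut to equal length gave 91 with ATRA and 124 with Corin. All one-sided regions then numbered 29889 and 29801. Lists of equal length give near-equal totals by construction, so these totals say nothing about the larger ATRA count above.

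The full set of 38791 ATRA-only regions had a median fold of 4.44, and the 26880 Corin-only regions 2.41. Of the ATRA-only regions 14851 (38.3%) were also called with DMSO, as were 11268 (41.9%) of the Corin-only regions. In the combination 11762 (30.3%) of the ATRA-only and 6754 (25.1%) of the Corin-only regions were called. Over all union regions 70% were called with DMSO, 62.5% in the combination and 23% in neither. Of the shared regions it was 97%, 93.1% and 0.92%. Neither DMSO nor the combination called 18378 (47.4%) of the ATRA-only and 12977 (48.3%) of the Corin-only regions. Those regions were called in 1 of the 4 lists alone.

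The place in the genome was similar for both kinds. Promoters, taken as regions with an annotated start at most 1 kb away, held 4364 (11.3%) of the ATRA-only and 3461 (12.9%) of the Corin-only regions, against 18897 (25.7%) of the shared regions. Introns held 55.4% and 50.9%. The GC content of the 200 bp at the summit had a median of 44.5% in ATRA-only, 53% in Corin-only and 49.5% in shared regions. Base composition thus differed between the kinds, and the motif counts below are also given within classes of GC content.

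Of the 73517 shared regions, 4955 (6.74%) were at least 2-fold higher with Corin after centring and 5443 (7.40%) at least 2-fold higher with ATRA. Centring places the classes around 0, so the near balance of these counts is not a result. With 1 median for all shared regions in place of the class medians the counts were 3466 and 7980, and with the pileup in place of the fold they were 7022 and 8755. ATRA took 52.3%, 69.7% and 55.5% of the shifted regions under these scales. With the folds as deposited, without centring, 1437 were higher with Corin and 15499 with ATRA, so ATRA took 91.5%. At a −log10 q of at least 5 the order of the centred counts turned, to 4694 higher with Corin and 4583 with ATRA. Among 26311 strong shared regions 993 (3.77%) were higher with Corin and 1210 (4.60%) higher with ATRA. Regions at the limit of 2-fold lie on both sides of a shift of 1 with no gap.

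**Figure D1:**
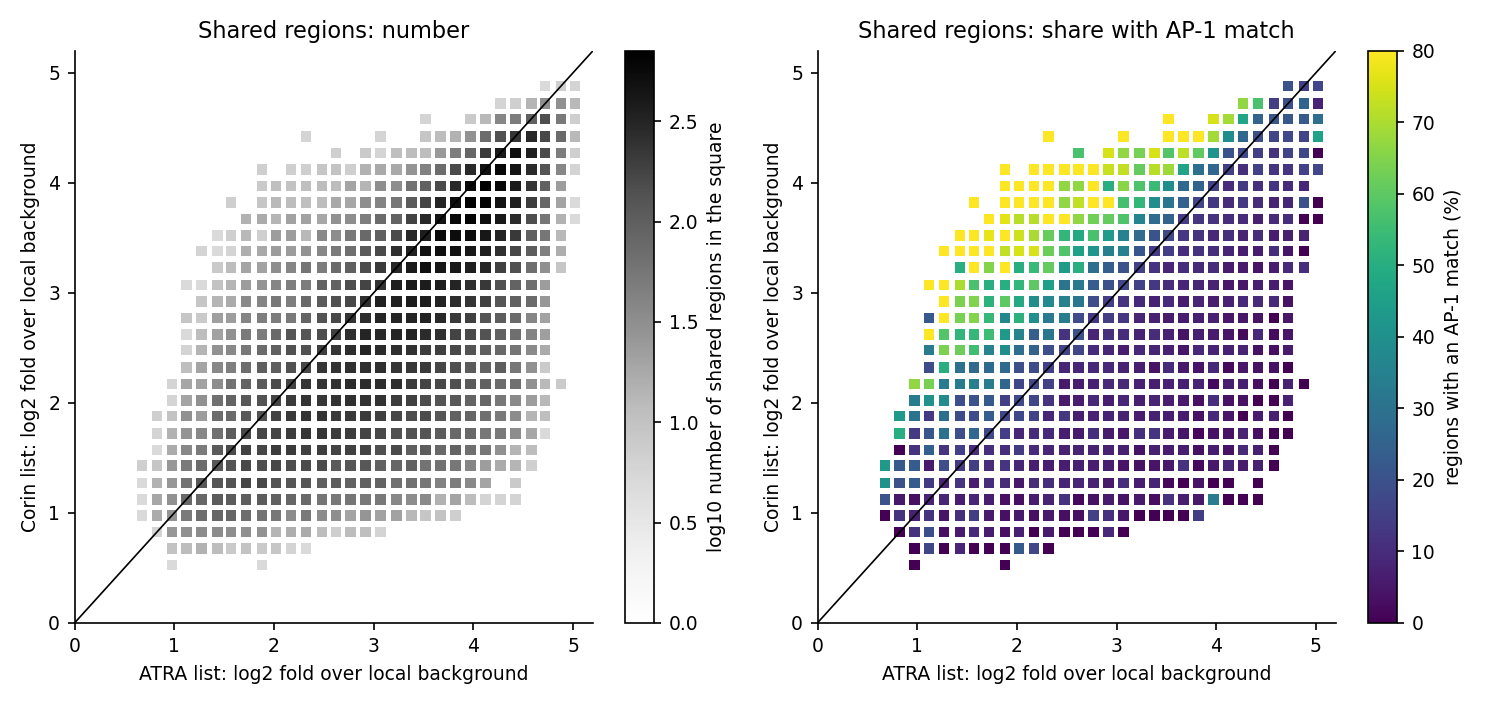
Shared regions by their log2 fold in the ATRA list (horizontal) and in the Corin list (vertical), in squares that hold at least 5 regions. Colour on the left is the number of regions on a log10 scale. On the right it is the share with an AP-1 match in the 200 bp centred on the summit. The line marks equal folds, and of the 134 squares with an AP-1 share of at least 40%, 133 lie above it and 1 below.

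AP-1 matches marked the Corin side. TGANTCA, the letters shown in the DNM3 and NRXN3 sequences, was found in 2084 (5.37%) of the ATRA-only regions and in 275 (5.05%) of those higher with ATRA. It was found in 7537 (11.9%) of the unshifted regions, in 2470 (49.8%) of those higher with Corin and in 5952 (22.1%) of the Corin-only regions. Over all union regions the share was 13.2%. The reversed consensus, which has the same base composition, was found in 4.94%, 4.43%, 4.35%, 7.35% and 5.67% of the 5 kinds in the same order. The AP-1 share of the ATRA-side regions was therefore close to that of the reversed letters.

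The contrast was sharper among strong regions. AP-1 matches occurred in 5 of 146 strong ATRA-only regions (3.42%, Wilson 1.47 to 7.77) and in 44 of 1210 strong regions higher with ATRA (3.64%). They occurred in 659 of 993 strong regions higher with Corin (66.4%, 63.4 to 69.2) and in 90 of 97 strong Corin-only regions (92.8%, 85.8 to 96.5). Among strong unshifted regions the share was 13%.

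PU.1 matches marked the ATRA side. GAGGAAGT was found in 4531 (11.7%) of the ATRA-only regions, 928 (17%) of those higher with ATRA, 4390 (6.96%) of the unshifted, 164 (3.31%) of those higher with Corin and 439 (1.63%) of the Corin-only regions. Its reversed letters occurred in between 0.949% and 1.67% of these kinds. The Corin-only share was thus close to that of the reversed letters, at 1.5%. The shorter ETS core GGAAGT, which the PU.1 consensus contains, followed the same order at 40.7%, 52.2%, 29.2%, 21.5% and 12.8%. Among strong regions PU.1 matches were found in 19 of 146 ATRA-only and 1 of 97 Corin-only regions.

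C/EBP, RUNX and IRF matches differed less between the kinds. C/EBP matches (TTGCNNAA) were found in 17.4% of ATRA-only, 17.9% of higher with ATRA, 16.4% of unshifted, 21.2% of higher with Corin and 9.56% of Corin-only regions. RUNX matches were found in 22%, 27.2%, 21.1%, 23.7% and 18.1%. IRF matches went from 11.2% of ATRA-only to 3.62% of Corin-only regions, but the reversed IRF letters went from 10.8% to 4.28%, so these shares cannot be told apart from base composition. Matches of GFI1 (AATCACNGC), a repressor that recruits CoREST, were rare, at 0.461%, 0.22%, 0.637%, 1.35% and 0.818%. Its reversed letters were found in between 0.0223% and 0.141% of these kinds. Of the 481 shared regions with a GFI1 match, 13.9% were at least 2-fold higher with Corin and 2.49% with ATRA. Of the shared regions without one it was 6.69% and 7.44%. The direct repeat of the retinoic acid receptor with a spacer of 5 bases was found in 54 ATRA-only regions (0.139%, Wilson 0.107 to 0.182) and 20 Corin-only regions (0.0744%, 0.0482 to 0.115), against 0.0927% of all union regions. The reversed letters were found in 0.0696% and 0.119%. Of the ATRA-only regions called in the combination and not with DMSO, 26 of 5562 (0.467%) held this repeat. The share was 0.161% of those called in both, 0.0231% with DMSO and not the combination, and 0.0871% in neither. The reversed letters were not counted in these groups. The 55 shared regions with the repeat had a median shift of −0.02. The repeat with a spacer of 2 went the other way, at 0.188% of ATRA-only and 0.294% of Corin-only regions.

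**Figure D2:**
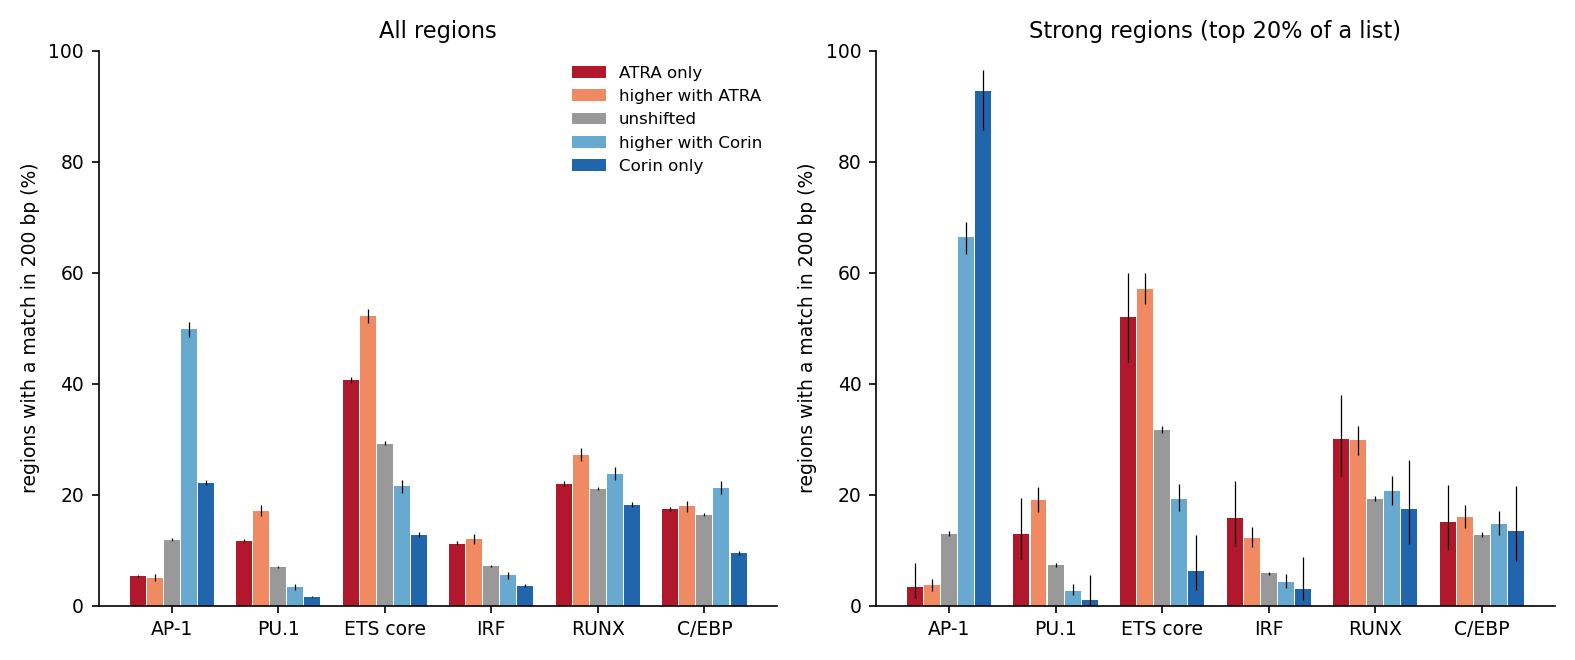
Share of regions with at least 1 match in the 200 bp centred on the summit for 6 motifs, in all regions (left) and strong regions (right). Bars are the 5 kinds of region and lines are 95% Wilson intervals. AP-1 rises to 92.8% in strong Corin-only regions, and PU.1 and the ETS core are highest in regions higher with ATRA.

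Both contrasts were present within classes of GC content. Below 45% GC the AP-1 share was 5.75% in ATRA-only and 43.6% in Corin-only regions, from 45 to 55% it was 5.41% and 25.2%, and above 55% it was 3.35% and 8.64%. For PU.1 the shares were 12% and 2.35%, 11.9% and 1.51%, and 9.15% and 1.39%. The size of the AP-1 contrast fell with GC content, from 7.57 times to 2.58 times.

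The shift of shared regions changed by degree with AP-1. Shared regions with a match had a median shift of 0.38 and those without −0.04. With the folds as deposited the medians were −0.05 and −0.47, and with pileup in place of fold 0.58 and −0.06, so the gap was at least 0.41 on each scale. With 1 match the median shift was 0.35, with 2 matches 0.78 and with 3 or more 1.2 (81 regions). Regions with the cores TGAGTCA or TGACTCA had a median of 0.42, and those with only TGAATCA or TGATTCA 0.23. The match also lay nearer the summit on the Corin side, at a median of 23 bp in Corin-only and 52 bp in ATRA-only regions. Of the 90 strong Corin-only regions with a match, 56 had it within 20 bp of the summit.

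PU.1 matches went the other way. Shared regions with a match had a median shift of −0.28 and those without 0.02. Of the former 16.9% were at least 2-fold higher with ATRA, and of the latter 6.64%. In the 682 shared regions with both matches the median was 0.06, between 0.41 for AP-1 alone and −0.33 for PU.1 alone. The size differed by strength group. Of 5 strength groups of shared regions, the strongest had a median of 0.08 with an AP-1 match, and the next to weakest 0.87. These groups go by the mean rank in both lists. A region of the strongest group is therefore high in both and has little room for a shift. Promoters with an AP-1 match had a median of 0.31 and promoters without one 0.04.

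The motif shares were also set out by calls in the other lists. Corin-only regions that DMSO also called and the combination did not call had an AP-1 share of 24.6% (1762 of 7149), and those called in neither had 21% (2724 of 12977). ATRA-only regions called in the combination and not with DMSO had a PU.1 share of 15% (833 of 5562), and those called with DMSO and not in the combination 8.55% (740 of 8651). The AP-1 share thus varied little among Corin-only regions, and the PU.1 share was lowest in ATRA-only regions that DMSO already had and the combination lacked.

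The strongest Corin-only regions, named by −log10 p, had the following folds. At the start of DNM3, which encodes a dynamin of vesicle scission, the fold was 9.46 with DMSO, 22.8 with Corin and 8.5 with both compounds, and the region was not called with ATRA. In an intron of COBL, an actin nucleator, it was 19.1 with DMSO and 23.7 with Corin, and the region was called neither with ATRA nor with both. These 2 regions thus differ in whether the combination called them.

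Further Corin-only regions lay near BAIAP2L1, DUSP5 and STX1A. The region downstream of DUSP5, a phosphatase of ERK, had 6.81 with DMSO, 15.1 with Corin and 3.23 with both. BAIAP2L1 had 7.16, 15.3 and 9.65, and an intron of STX1A, a syntaxin, 5.79, 10 and 4.14. All of the Corin-only regions named here were called with DMSO, with a lower fold than with Corin, and each held an AP-1 match.

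The strongest ATRA-only regions lay in introns of PIK3R3, NCOA3, SLC8A1 and MYLK3, near the start of FRS3 and beyond FTL. In PIK3R3, a regulatory subunit of phosphoinositide 3-kinase, the fold was 6.88 with DMSO, 21 with ATRA and 14.3 with both. In NCOA3, a co-activator of nuclear receptors, it was 2.9, 21.3 and 15.7. SLC8A1, a sodium-calcium exchanger, had 5, 21 and 11.9, and MYLK3, a myosin kinase, 3.27, 16.2 and 11. The folds of these 4 were higher in the combination than with DMSO. At FRS3, an adaptor of FGF receptors, the folds were 3.3, 8.4 and 2.71, and at FTL, the ferritin light chain, 1.94, 5.35 and 1.86. For FRS3 and FTL the combination was below DMSO, and their ATRA backgrounds of 135.2 and 289.3 were far above the list's usual 9.12. None of the 6 held an AP-1 match.

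Among strong shared regions, the largest shifts towards Corin followed a like pattern. A region at an internal start of BCL2, the anti-apoptotic gene, 158198 bp from the gene's 5′ end, had folds of 11.3 with DMSO, 2.77 with ATRA, 20.6 with Corin and 8.56 with both, a shift of 3.66. Near BTN3A2, a butyrophilin, the folds were 17.2, 2.57, 21.5 and 5.16. Upstream of NRXN3, a neurexin of synapses, they were 9.36, 2.87, 19.9 and 3.82. Near MLXIPL, a glucose-responsive transcription factor, they were 19, 3.76, 26.2 and 18.3. The other regions of this kind were near C5orf63, EXOC1, TRAK1 and SGCE, with shifts from 3.46 to 3.71. Of the 8, 7 held an AP-1 match, and the region near C5orf63 did not.

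Towards ATRA the largest shift was upstream of STK17A, a death-associated kinase, with folds of 20.9 with DMSO, 22.2 with ATRA, 1.4 with Corin and 21.1 with both. Corin alone was the low list there. COX6C, a cytochrome oxidase subunit, was likewise low with Corin alone, at 13.4, 14.6, 1.3 and 9.99. The Corin pileups were 60 at STK17A and 86 at COX6C. Their Corin backgrounds of 42.7 and 66 were above that list's usual 13.1, and their ATRA backgrounds were 55.4 and 57.9. The part of the raised background in these 2 low folds was not tested. Near ADAR, the RNA-editing deaminase, the folds were 6.81, 35.1, 3.32 and 22.4. At an annotated start within BANK1, a B cell scaffold, they were 7.75, 28, 2.26 and 6.96. G3BP2, a stress granule protein, had 7.97, 23, 1.98 and 11.2. RGS12, DOCK11 and WDR11 completed the 8, with shifts from −2.93 to −2.64. All 8 regions were called with DMSO, and 1 of them, near STK17A, held an AP-1 match.

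**Figure D3:**
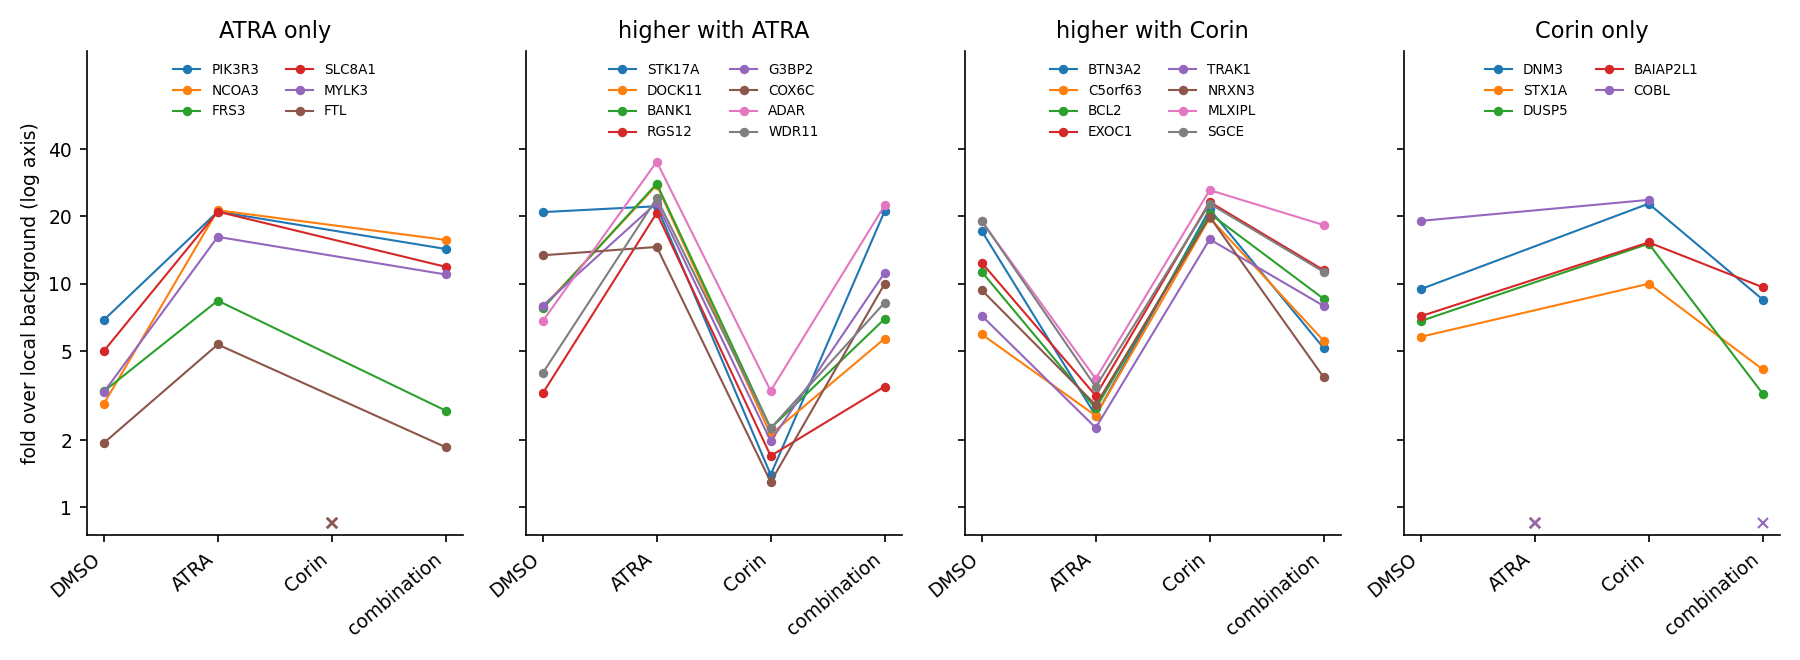
Fold over local background (log axis) of the named regions in the 4 lists, 1 line per region, in 4 panels by kind, with crosses at the bottom for a region not called in that list. The regions were chosen for their difference between ATRA and Corin, so only DMSO and the combination are read as values that the choice did not use.

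Regions were chosen at the extremes of ATRA against Corin, so the other 2 lists tend to lie between them by that choice alone. With this in mind, strong ATRA-only regions had a median fold of 4.78 with DMSO, 20.5 with ATRA and 6.44 with both compounds, and 144 of 146 were called in the combination. Strong Corin-only regions had 6.32 with DMSO, 14 with Corin and 4.14 with both, and 81 of 97 were called in the combination. Of all 26554 strong regions the combination called 26532. Strong shared regions higher with ATRA had medians of 9.28 with DMSO, 21.2 with ATRA, 5.24 with Corin and 11.2 with both. Those higher with Corin had 9.81, 6.46, 14 and 8.9.

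Genes differed in how many regions of each kind lay nearest to them. Of 17128 coding genes with a union region whose start lay within 100 kb, 7797 had more ATRA-only and 4180 more Corin-only regions. Over all union regions there were also more ATRA-only (38791) than Corin-only (26880) regions, so this order of the gene counts is not a result about genes. PHACTR1, a phosphatase and actin regulator, had 27 ATRA-only and 2 Corin-only regions. TENM4 had 28 and 7, PALLD, an actin scaffold, 24 and 3, NFIA, a nuclear factor, 21 and 2, and STOX2 19 and 0. On the other side RPS6KA2, a ribosomal S6 kinase, had 4 ATRA-only and 25 Corin-only regions, DNAH7, an axonemal dynein, 5 and 24, PRKDC, the DNA-dependent protein kinase, 3 and 22, ATP11A, a phospholipid flippase, 5 and 23, and ITGA6, an integrin chain, 5 and 24. The ITGA6 regions had median backgrounds of 97 with ATRA and 122.4 with Corin, far above the usual level of either list. Few of these regions held an AP-1 match, with 1 or 2 at each of the 5 genes on the Corin side.

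Chromosomes differed too. Corin-only regions were 38.5% of the union regions of chromosome 13, against between 11% and 26.5% on the other autosomes. Of the 2168 Corin-only regions there, 12.6% held an AP-1 match, against 23% of the 24712 elsewhere, and their median fold was 2.33 against 2.41. ATRA-only regions were between 18.3% and 34.1% of the union regions of an autosome. Without chromosome 13 there were 37494 ATRA-only and 24712 Corin-only regions. These values differ by chromosome, and the part of the chromosome in the counts was not tested.

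**Figure D4:**
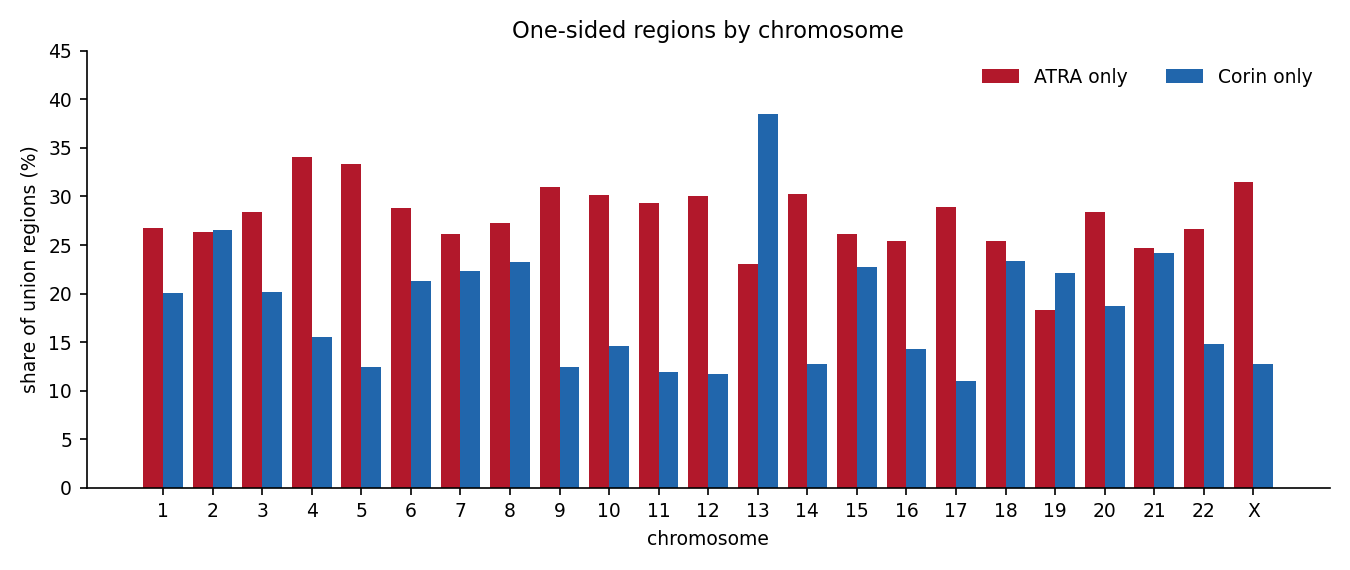
Share of the union regions of each chromosome that were ATRA-only (red) or Corin-only (blue), in percent. On chromosome 13 the Corin-only share is 38.5%, above that of every other chromosome drawn.

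Retinoic acid genes were described by the regions within 10 kb of 20 listed genes. Of 163 such regions 43 (26.4%) were ATRA-only and 21 (12.9%) Corin-only, against 27.9% and 19.3% of all union regions, and the 99 shared regions had a median shift of −0.02. The list as a whole thus showed no excess of ATRA-only regions over the background. With a fold of at least 3 the Corin-only count fell to 5 and the ATRA-only count was 50. Over all union regions that limit left 7753 Corin-only regions of 26880, so the fall was not particular to this list. Single regions had unequal folds. At an internal start of RARB, the receptor gene that is itself a known retinoic acid target, the fold was 6.23 with DMSO, 12.3 with ATRA, 3.54 with Corin and 11.8 with both, a shift of −1.11, with pileups of 627 and 49. A region 9284 bp upstream of the RARB gene with 2 AP-1 matches went the other way, at 16.3, 7.92, 16.8 and 4.98.

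Other strong regions of the retinoic acid list were of either direction. ASB2, a ubiquitin ligase subunit known to be induced by ATRA, had an intron region at 4.14 with DMSO, 10.6 with ATRA, 2.98 with Corin and 5.99 with both. A region 2205 bp upstream of TNFAIP2 was called with ATRA, at 5.87, and with both compounds, at 4.48, and not with DMSO or Corin. Between RARG and ITGB7 an intergenic region had 4.11, 11.6, 3.6 and 6.47, and an intron region of RARG was Corin-only, at 3.71 with DMSO, 5.17 with Corin and 3.64 with both. STRA6, a retinol transporter, had an intron region at 6.78, 7.37, 10.6 and 8.75. Of the CYP26 genes for retinoic acid degradation, CYP26A1 and CYP26B1 had no promoter region in either list.

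Myeloid genes had 164 regions, of which 36 (22%) were ATRA-only and 18 (11%) Corin-only, both below the 27.9% and 19.3% of all union regions. The Corin-only count was 11 with the q limit and 10 with a fold of at least 3. Over all union regions these limits left 14317 and 7753 Corin-only regions of 26880. The promoter of CSF1R, the receptor of the monocyte growth factor CSF1, had the largest promoter shift of the list, at folds of 2.69 with DMSO, 9.4 with ATRA, 1.91 with Corin and 5.18 with both. A second CSF1R region, in an exon and with an AP-1 match, had 8.16, 5.66, 10.2 and 8.39. A region near CEBPD, a C/EBP gene, had 11.6, 18.6, 4.86 and 9.06. Of the 19 myeloid promoters called in both lists, 10 had a shift below 0 by fold, with a median of −0.03, and 13 by pileup, with a median of −0.39. Over all shared promoters the medians were 0.05 on both scales. The median background of the 19 was 89.7 with ATRA and 63.5 with Corin.

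The promoters of AP-1 genes were lower with Corin by fold and higher by pileup. All 12 listed AP-1 factor genes had a promoter region in both lists, and 10 had a shift below 0, with a median of −0.45, against 0.05 over all 18897 shared promoters. At FOSB the folds were 5.7 with DMSO, 12.9 with ATRA, 4.68 with Corin and 4.99 with both. At JUN they were 7.88, 11.2, 6.45 and 7.24, and at FOS 5.71, 9.65, 5.02 and 5.18. The background under these promoters was higher with Corin, with a median of 233.8 against 114.6 with ATRA, and by pileup in place of fold 2 of 12 were below 0, with a median shift of 0.34. FOSB, past 2-fold by fold, had a pileup shift of −0.03. The JUN pileup was 1904 with ATRA and 2187 with Corin.

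Genes of the CoREST complex, listed together with GFI1 and GFI1B, were little shifted at their promoters. All 14 were called in both lists, with a median shift of 0.10. PHF21A, a reader subunit, was the 1 promoter past 2-fold, at 6.36 with DMSO, 5.07 with ATRA, 7.22 with Corin and 6.42 with both. Its shift was 1.1 by fold and 0.85 by pileup, so that call ended by pileup. KDM1A, which encodes LSD1, had a main promoter at 20.2, 19.8, 21.3 and 18.7. At a further start inside KDM1A the folds were 9.11, 17.6, 3.62 and 3.62. HDAC2 had an intron region at 10.8, 20.7, 7 and 12. Both strong regions counted for HDAC1 lay outside its body and nearest to MARCKSL1.

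Neuronal genes that REST and CoREST repress had 70 regions, of which 18 (25.7%) were ATRA-only and 19 (27.1%) Corin-only, against 27.9% and 19.3% of all union regions. No strong region among them was called with a single compound or shifted. The Corin-only count was 5 with the q limit and 0 with a fold of at least 3, and the ATRA-only count was 11 with a fold of at least 3 and 8 with lists of equal length. Over all union regions the q and fold limits left 14317 and 7753 Corin-only regions of 26880. Equal lists left 29889 ATRA-only regions of 38791. Promoters of L1CAM, SNAP25, SCN3A and SYT4 were called with ATRA and not with Corin, and all of them were also called with DMSO. Their folds with DMSO and ATRA were 4.34 and 9.7, 3.12 and 3.66, 3.19 and 2.37, and 3.99 and 5.83, in that order. The ATRA pileups were only 36 at SNAP25 and 23 at SCN3A, over a background of 9.12. Among interferon-stimulated genes 13 of 18 promoters had a shift below 0, with a median of −0.19, and by pileup 16 were below 0, with a median of −0.51. Over all 18897 shared promoters 8273 were below 0 by fold, with a median of 0.05, and 8543 by pileup. IRF7, a factor of the interferon response, had folds of 12.6 with DMSO, 22 with ATRA, 8.31 with Corin and 10.9 with both. Its shift was −1.24 by fold and −0.49 by pileup, over backgrounds of 83.9 with ATRA and 144 with Corin, so it was past 2-fold by fold and not by pileup. An MX2 exon region with an AP-1 match had 5.74, 4.34, 7.16 and 6.

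Genes of cell cycle arrest and cell death had 143 regions, with 33 (23.1%) ATRA-only and 20 (14%) Corin-only, both below the 27.9% and 19.3% of all union regions. The Corin-only count was 13 with the q limit and 5 with a fold of at least 3, against 14317 and 7753 of 26880 over all union regions. The promoter of TNFRSF10A, a TRAIL receptor, was called with ATRA, at 4.03, and not with Corin, and had 2.07 with DMSO and 2.16 with both. CDKN1A, the inhibitor p21, had folds of 8.8 with DMSO, 12.2 with ATRA, 7.17 with Corin and 7.96 with both at its promoter, a shift of −0.63 by fold and 0.15 by pileup. An intron region of BCL2L1, an anti-apoptotic gene, had 4.51, 13.1, 3.45 and 7.37. Of the lymphoid markers, PAX5 had a Corin-only intron region with 2 AP-1 matches at 6.33 with DMSO, 15.3 with Corin and 4.22 with both, and EBF1 an intron region at 12.4, 23, 7.64 and 15.7.

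**Figure D5:**
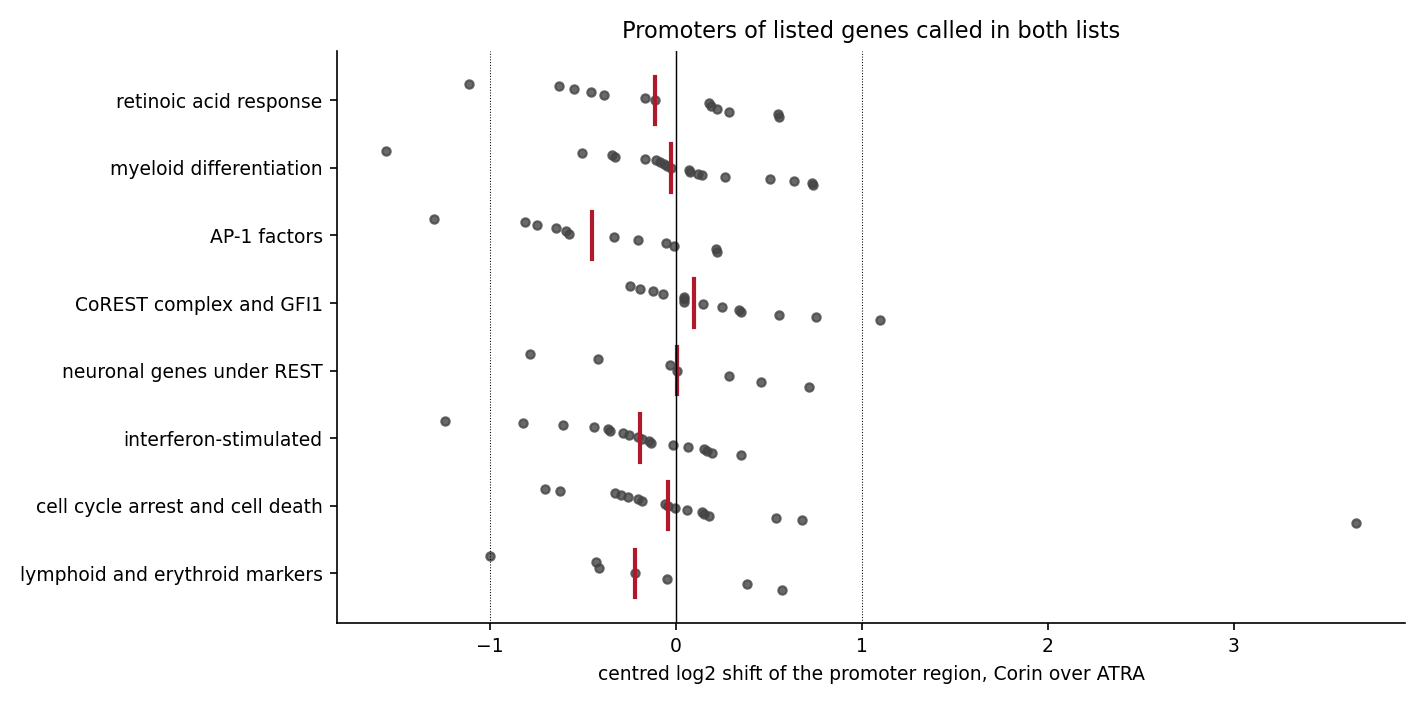
Centred log2 shift, Corin over ATRA, of the promoter region of each listed gene called in both lists, 1 point per gene and 1 row per gene list, with red bars at the medians and dotted lines at the 2-fold limits. Points are spread vertically for legibility alone; the AP-1 factor median lies at −0.45 by fold, and by pileup it is 0.34.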

How the data were processed

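ATAC-seq of U-937 was deposited as 1 narrowPeak list per group, with its 2 replicates already combined by the authors. Per the submitters' processing notes the tools were cutadapt, Bowtie2, SAMtools, Picard and MACS2 and the build was hg38, with versions not given in the sources used here. In the deposited lists the fold column is a ratio over the local background, p and q are both given as −log10 values and the display score is an integer, and the deposited start and summit columns are positions. These values are the authors' and describe regions within their list. No other per-sample column was present, so 0 were left out. The depth per sample is unknown, so no count of reads is given.

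Peaks on 24 chromosomes were merged and joined as described, with GENCODE release 44. The pileup and background of each peak were solved from its fold and p as a Poisson tail, and the pileup was whole, within 0.05, for at least 99.96% of peaks in every list. Motifs, 19 in all, were searched on both strands in 200 bp at the strongest summit, with the reversed letters as a control for composition. A promoter of a listed gene was its strongest region within 1 kb of any of its annotated starts. Shares carry 95% Wilson intervals. Overlap counts were checked with bedtools 2.31.1, which gave the same 38791 and 26880. The method was also tested on simulated data, with shifts planted only where the fold left room for a fall, so falls from low folds may be missed. Python 3.11.15, pandas 2.3.3, scipy 1.17.1 and pysam 0.24.0 were used.

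Named regions were the 6 strongest of each kind called with a single compound by −log10 p and the 8 largest shifts each way among strong shared regions, at most 1 per Mb and without peaks whose fold and p could not come from a whole number of reads, then the 5 genes each way with the largest difference in counts, and of the 8 gene lists (140 genes, all found) those with a strong region that differed. Some of the items this rule selects are not reported here. The members, lists, strength classes and motifs were chosen with earlier results of these data known. The motifs, the numbers and positions of AP-1 matches, the motif pairs, the split by chromosome and the printed sequences were chosen after their values were seen.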

Additional observations from a re-analysis of the deposited data

How the results depend on the processing

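No paired analysis was possible because each group had 1 pooled list, and for the same reason no replicate could be left out. Of 22 alternatives, 5 were chosen after seeing the data (pileup in place of fold, no chromosome 13, whole-number peaks, a fold of at least 3, the strongest 50%). Of the counts and shares, 98 stayed within 1.5 times (ratios of shares within their interval) and 40 moved. Of the counts near listed genes 95 stayed and 35 moved. All 130 recomputed shifts of named regions kept their direction. A limit of 5 on −log10 q left 14317 Corin-only regions, of which 55 were strong, 6588 were called with DMSO, 3945 in the combination and 1778 at promoters, and a fold of at least 3 left 7753, with 48, 3600, 2157 and 837. The latter left 3438 shared regions higher with ATRA and 3762 higher with Corin, and the q limit 4583 and 4694, which turned the order of 5443 and 4955. Strong regions called with a single compound, ATRA then Corin, numbered 622 and 289 with an overlap of 50%, 10 and 8 in the strongest 10%, 1015 and 228 by fold and 4946 and 1954 in the strongest 50%, and lists of equal length gave 91 and 124, which turned the order of 146 and 97. Equal lists also turned the order at promoters, to 3375 and 3875, and gave 29889 ATRA-only and 29801 Corin-only regions in all. With −log10 p in place of fold 12615 shared regions were higher with Corin and 14295 with ATRA, and with pileup 8755 were higher with ATRA. Promoters held 8622 ATRA-only and 6520 Corin-only regions within 2.5 kb, and 1712 and 1209 by coding transcripts. The AP-1 share of Corin-only over ATRA-only regions was 4.12 times, and 6.46 with the q limit, 4.33 with equal lists, 9.23 with a fold of at least 3, 7.05 in 100 bp (949 ATRA-only regions with a match), and 7.57, 4.65 and 2.58 by rising GC class. The PU.1 share of ATRA-only over Corin-only regions was 7.15 times, and 6.4 with the q limit, 5.58 with a fold of at least 3, 11.4 in 100 bp, and 5.12 and 7.91 in the lower GC classes. Near listed genes the order turned at AP-1 factor genes, from 9 ATRA-only and 10 Corin-only regions to 9 and 6 with the q limit, 47 and 29 within 50 kb and 14 and 5 with a fold of at least 3, at neuronal genes, from 18 and 19 to 16 and 5 and to 11 and 0, and at lymphoid and erythroid markers, from 17 and 16 to 11 and 18 with equal lists, 12 and 15 with no region within 500 bp and 35 and 37 within 50 kb. Read depth is unknown and replicate spread cannot be had, which limits what a call in 1 list shows.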
